A study of Mus musculus with 26 samples.

Results

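The transcripts of 38 genes of the cell division cycle were measured in the left ventricle of hypertensive and normotensive mice given Cmpd17b, which activates formyl peptide receptors, or its vehicle. The 38 genes were taken by symbol from a list of proliferation genes, by a rule that uses no measured value, and each was found among the 40413 genes counted. All 38 had at least 1 count in every one of the 25 libraries used and all 38 were among the 15543 genes that passed the filter on low counts. By role they were 10 genes of DNA replication and nucleotide supply (Mcm2 to Mcm7, Pcna, Tyms, Rrm1 and Rrm2), 8 cyclins and mitotic kinases (Ccne2, Ccna2, Ccnb1, Ccnb2, Cdk1, Aurka, Aurkb and Plk1), 7 genes of the spindle checkpoint, kinetochore and mitotic protein degradation (Bub1, Bub1b, Birc5, Cenpe, Cenpf, Cdc20 and Ube2c), the chromosome proteins Mki67 and Top2a, 5 genes of spindle motors and spindle assembly (Kif11, Kif4, Tpx2, Nusap1 and Hmmr) and 6 genes of the midzone and cytokinesis (Kif20a, Kif23, Prc1, Anln, Ect2 and Racgap1). The last 28 of these, all but the replication genes, are called the division genes in what follows.

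A cell that commits to divide first makes the machinery of DNA replication under the control of E2F factors, and later the cyclins, kinases, spindle and cytokinesis proteins under the control of the MuvB complex with B-MYB and FOXM1, which reads a DNA element called CHR. In quiescent cells the DREAM complex keeps both sets low. Most cardiomyocytes of the adult mouse have left the cell cycle, and dividing cells of the ventricle are mainly fibroblasts, endothelial cells and leukocytes.

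BPH/2J is an inbred mouse strain with high blood pressure and BPN/3J is the strain with normal blood pressure set against it. Cmpd17b was given by intraperitoneal injection at 50 mg/kg/day for 28 days, and poly(A) RNA from left ventricles was sequenced, 1 library per mouse. The groups were BPH/2J mice on Cmpd17b (BPH_Cmpd17b, 7 libraries of which 6 were used), BPH/2J mice on vehicle (BPH_vehicle, 7 libraries), BPN/3J mice on Cmpd17b (BPN_Cmpd17b, 5 libraries) and BPN/3J mice on vehicle (BPN_vehicle, 7 libraries). All mice were adults per the series' design text, and no genotype beyond the strain, no sex and no composition of the vehicle are given in the sources used here. The strains were bred apart for blood pressure, so the effects of their other genetic differences and of blood pressure itself cannot be told apart.

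Total counts ran from 25476112 to 48648196 per library. The labels name batch 1 and batch 2: batch 1 held all 5 BPN_Cmpd17b libraries and 5 of each remaining group, and batch 2 held the other 6, a pair per remaining group. The library labelled BPH_Cmpd17b replicate 7 was left out because it did not carry a ventricular profile: Myh6, whose myosin powers the ventricle of adult mice, was at 16.3 counts per 1000000 (CPM), against 13570 to 22900 CPM in the other 25 libraries, and Kap, a proximal tubule transcript of the kidney, at 24940 CPM against 0.58 to 122 CPM. BPH_Cmpd17b replicate 6, of batch 2, kept its ventricular markers (Myh6 at 19400 CPM) but stood apart in the cell cycle genes, so each result that rests on it is given with and without it. Differences were tested with edgeR's quasi-likelihood F-test in 1 fit of the 25 libraries with a batch term, and called at a Benjamini-Hochberg adjusted p under 0.05 over all 15543 genes. CPM below are scaled by edgeR's TMM factors. Cell type markers, singly or summed, and the levels set against BPH_Cmpd17b replicate 7 are instead scaled by the library total only.

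The cell cycle genes were scarce transcripts in all 4 groups. Pcna, the sliding clamp that holds DNA polymerase on its template, was the most abundant per length in every group: its mean level was 9.80 CPM per kb of exon in BPH_Cmpd17b, 10.7 in BPH_vehicle, 11.7 in BPN_Cmpd17b and 12.4 in BPN_vehicle, with exon lengths from the GENCODE annotation of GRCm38. Mki67, which encodes the Ki-67 protein used as a marker of cycling cells, stood at 0.398, 0.330, 0.227 and 0.274 CPM per kb in the same order of groups. Bub1, a kinase of the spindle checkpoint, was last or near last of the 38 at 0.0773, 0.0557, 0.0323 and 0.0624 CPM per kb, and its count over the 25 libraries had a median of 8 and a lowest value of 1. Of the 38 genes 11 overlap another gene of that annotation, which was itself counted for all of them but Plk1. Tyms, Ccnb1 and Kif4 have a counted pseudogene. The levels of these genes are less certain. The 95% interval of the vehicle strain difference was 0.287 wide on the log2 scale for the gene with the narrowest interval and 2.09 wide for the gene with the widest.

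**Figure D1:**
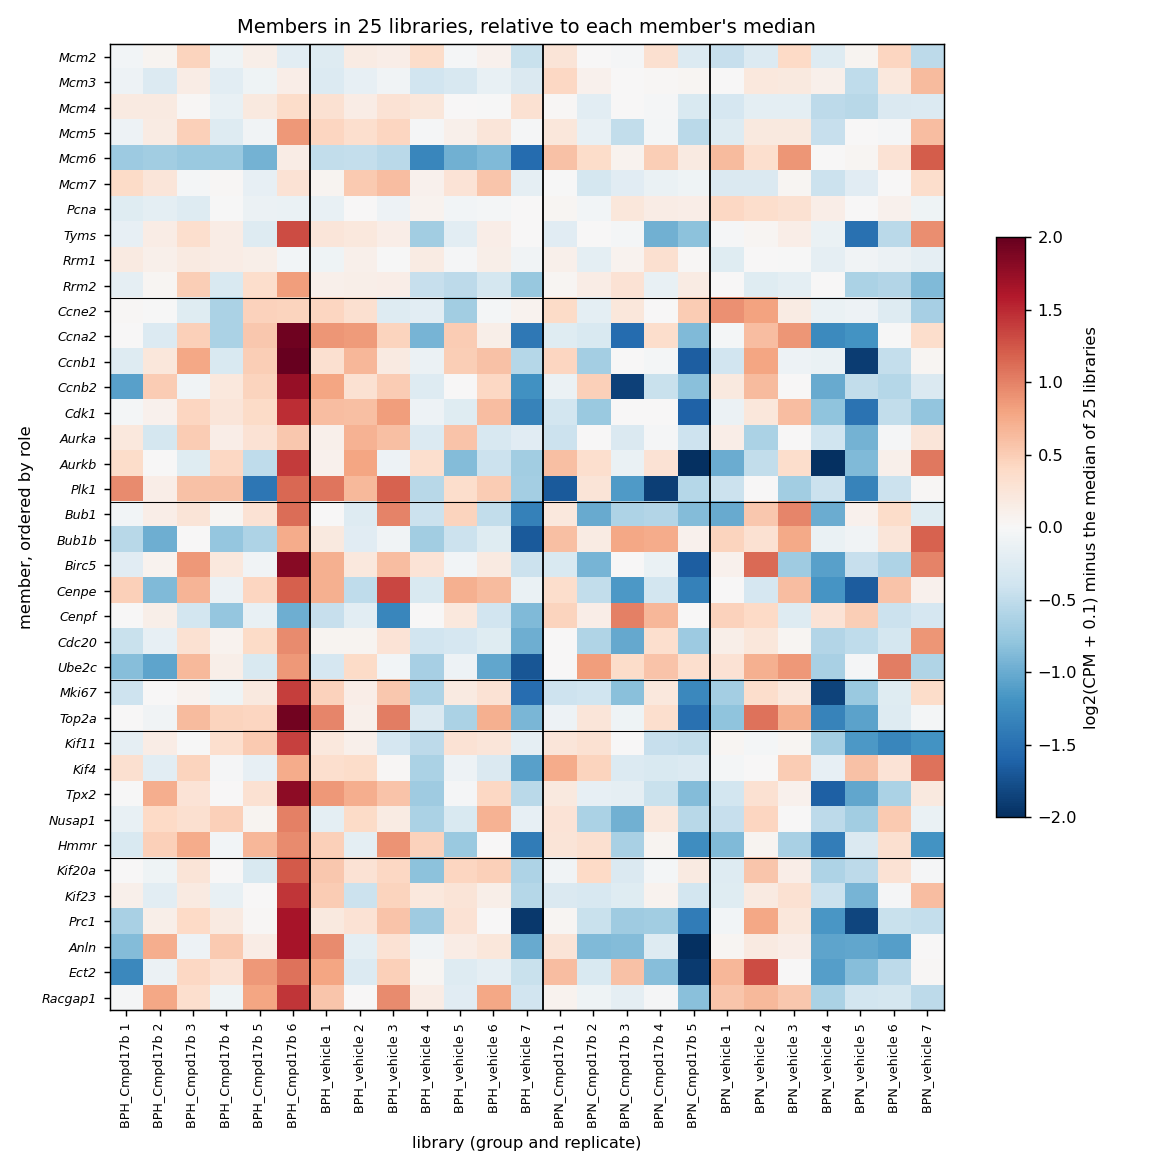
Heat map of the 38 cell cycle genes (rows, ordered by role) in 25 libraries (columns, by group and replicate). Colour gives log2(CPM + 0.1) minus the median of that gene over the 25 libraries, and black lines divide groups and roles. The column of BPH_Cmpd17b replicate 6 is red through most of the division genes, where it was the highest library for 19 of 28, and the row of Mcm6 is blue through most BPH/2J libraries.

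In vehicle-treated mice 5 of the 10 replication genes and 1 of the 28 division genes were called between the strains. BPH/2J ventricles held less Mcm6, Mcm3, Pcna and Bub1b transcript and more Mcm4 and Mcm7. These 6 calls were 15.8% of the 38 genes, while 18.9% of all genes tested were called in the same comparison, so the share was near the background. In BPH_vehicle 2 of the 38 were called higher and 4 lower, against 9.16% and 9.73% of all genes. The difference was above 0 for 28 of the 38 (all genes, 49.8%), with a median of 0.18 on the log2 scale (all genes, -0.0008). The median was 0.35 without BPH_vehicle replicate 7 and 0.30 without BPN_vehicle replicate 7. It fell to 0.13 without BPH_vehicle replicate 3 and 0.12 without BPN_vehicle replicate 4, and in batch 2 alone it was -0.14. In bulk tissue, fewer cells of a type and less RNA per cell cannot be told apart.

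Mcm6 showed the largest of these differences. It encodes a subunit of the MCM2-7 ring, the helicase that unwinds DNA at replication forks and in which each of the 6 subunits occurs once. Its level was 1.75 CPM at the lowest, 2.83 at the median and 3.78 at the highest in BPH_vehicle, against 5.30, 6.69 and 12.4 CPM in BPN_vehicle. No BPH_vehicle library reached the lowest BPN_vehicle library. The means were 2.93 ± 0.82 and 7.79 ± 2.61 CPM (SD, n = 7 each), a log2 difference of -1.41 ± 0.20 (SE; adjusted p = 5.71e-06, edgeR quasi-likelihood test). Mcm6 remained called in all 26 alternative fits of this comparison, with log2 differences between -1.49 and -1.21.

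Mcm4, another subunit of the same ring, went the other way. It stood at 7.33, 8.66 and 9.16 CPM (lowest, median, highest) in BPH_vehicle, against 5.02, 6.01 and 6.47 CPM in BPN_vehicle. Here every BPH_vehicle library lay above every BPN_vehicle library. BPH_vehicle exceeded BPN_vehicle by 0.52 on the log2 scale ± 0.09 (SE; edgeR adjusted p = 4.11e-05), and it was called in 25 of 26 alternatives, the exception being batch 2 alone with 2 libraries per strain (0.58, adjusted p = 0.0848). Mcm6 and Mcm4 were the 2 cell cycle genes whose groups did not overlap, 5.26% of the 38 against 6.36% of all genes tested.

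The remaining calls were smaller than the Mcm6 difference and their groups overlapped. Mcm7, also of the ring, was 6.77, 9.25 and 11.8 CPM in BPH_vehicle, against 5.68, 6.53 and 9.82 CPM in BPN_vehicle. Its log2 difference was 0.40 ± 0.12 (edgeR adjusted p = 0.019), and it was called in 22 of 26 alternatives. It lost the call without BPH_vehicle replicate 3 (0.35, adjusted p = 0.0523) or BPN_vehicle replicate 4 (0.34, adjusted p = 0.0513). A fit of all 26 libraries left Mcm7 uncalled as well, at 0.40 with an adjusted p of 0.121. The value within batch 2 was smaller, 0.24, and far from the threshold at an adjusted p of 0.55. The gene overlaps Cops6, Ap4m1 and the microRNA genes Mir25 and Mir93, and since it is not known whether the counting used strand, its count is uncertain.

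Mcm3, another subunit of the ring, was 4.80, 5.20 and 6.02 CPM in BPH_vehicle, against 4.43, 7.25 and 9.88 CPM in BPN_vehicle. The BPH_vehicle libraries were tightly grouped within the lower part of the wide BPN_vehicle range. The log2 difference was -0.39 ± 0.12 (edgeR adjusted p = 0.0209), and it was called in 20 of 26 alternatives. Without BPN_vehicle replicate 7 it was -0.29 (adjusted p = 0.051), and the call also ended with all 26 libraries, with limma voom, with only the groups compared, and in batch 1 or batch 2 alone (adjusted p from 0.0588 to 0.309).

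Pcna was 23.6, 25.6 and 27.7 CPM in BPH_vehicle, against 24.8, 28.8 and 34.8 CPM in BPN_vehicle. Its log2 difference of -0.21 ± 0.07 (edgeR adjusted p = 0.0312) was the smallest that was called, and it was called in 15 of 26 alternatives. Within batch 1 the value was -0.12 (adjusted p = 0.344), and the 4 libraries of batch 2 gave -0.45 (adjusted p = 0.0825). Leaving out any 1 of 6 libraries also ended the call, with values from -0.21 to -0.18.

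Bub1b, which encodes the checkpoint protein BubR1 that restrains the anaphase-promoting complex, was the 1 division gene called under vehicle. It stood at 0.236, 0.808 and 1.14 CPM in BPH_vehicle, against 0.883, 1.23 and 2.33 CPM in BPN_vehicle, so the groups overlapped. The log2 difference was -0.89 ± 0.29 (edgeR adjusted p = 0.0329). The call ended without BPH_vehicle replicates 4, 5 or 7 or BPN_vehicle replicates 3 or 7, each left out singly, where the value lay between -0.89 and -0.68.

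The genes most used as markers of proliferation overlapped widely between the strains. Mki67 was 1.04, 3.61 and 4.69 CPM in BPH_vehicle, against 0.812, 2.68 and 4.15 CPM in BPN_vehicle, a log2 difference of 0.29 ± 0.34 (edgeR adjusted p = 0.612, 95% interval -0.40 to 0.98). Top2a, the topoisomerase that untangles sister chromatids, differed by 0.40 ± 0.39 (adjusted p = 0.544). Mcm2, also of the helicase ring, differed by 0.07 ± 0.13 (adjusted p = 0.772). Cdk1, the kinase that drives entry into mitosis, differed by 0.65 ± 0.36 (adjusted p = 0.226) and its partner cyclin Ccnb1 by 0.63 ± 0.44 (adjusted p = 0.362). In the fit of 25 libraries none of the 8 cyclins and mitotic kinases, 5 spindle genes or 6 cytokinesis genes was called. Their log2 differences were above 0 for 7 of 8, 4 of 5 and 6 of 6. Some alternatives called Tpx2 (without BPH_vehicle replicate 7), Kif11 (without BPN_vehicle replicate 3), Cenpf (batch 2 alone) or Ube2c (limma voom). Cenpf and Ube2c lay below 0 in the fit of 25 libraries, and Plk1 is given below. In batch 2 alone, Mki67, Top2a, Cdk1 and Ccnb1 lay below 0, between -0.45 and -0.09, and 14 of 36 cell cycle genes tested there were above 0.

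Markers of other cell types were read beside these results. Of 10 fibroblast markers 1 was called higher in BPH_vehicle than in BPN_vehicle and none lower (4 higher and 1 lower without BPH_Cmpd17b replicate 6 in the fit), and the sum ran from 903 to 1293 CPM in BPH_vehicle and from 776 to 1322 CPM in BPN_vehicle. Of 12 macrophage and monocyte markers 2 were called higher and none lower (2 and 1 without that replicate), with sums of 208 to 326 CPM in BPH_vehicle and 184 to 317 CPM in BPN_vehicle. Of 10 T and NK cell markers tested 3 were called higher and 1 lower, with sums of 2.96 to 5.72 CPM in BPH_vehicle and 1.74 to 4.15 CPM in BPN_vehicle.

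Of 3 atrial markers tested 2 were called higher and none lower, with sums of 348 to 1186 CPM in BPH_vehicle and 171 to 865 CPM in BPN_vehicle. Of 10 cardiomyocyte markers 2 were called lower (3 without replicate 6), with sums of 64070 to 71760 CPM in BPH_vehicle and 57850 to 73540 CPM in BPN_vehicle, and of 6 epithelial and mesothelial markers 2 were called lower. None of 10 endothelial markers was called, but their log2 differences were above 0 for 0 of 10, with a median of -0.20. No erythroid marker (0 of 7 above 0) or neutrophil marker (5 of 5 above 0) was called either. Endothelial sums ran from 1034 to 1380 CPM in BPH_vehicle and from 1027 to 2896 CPM in BPN_vehicle. BPN_vehicle replicate 7 stood apart in these sums: among the 25 libraries it had the highest endothelial sum (2896 CPM) and erythroid sum (2486 CPM) and the lowest cardiomyocyte sum (57850 CPM). The calls of Mcm3 and Bub1b ended without it. The part of these cells in the strain differences was not tested.

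**Figure D2:**
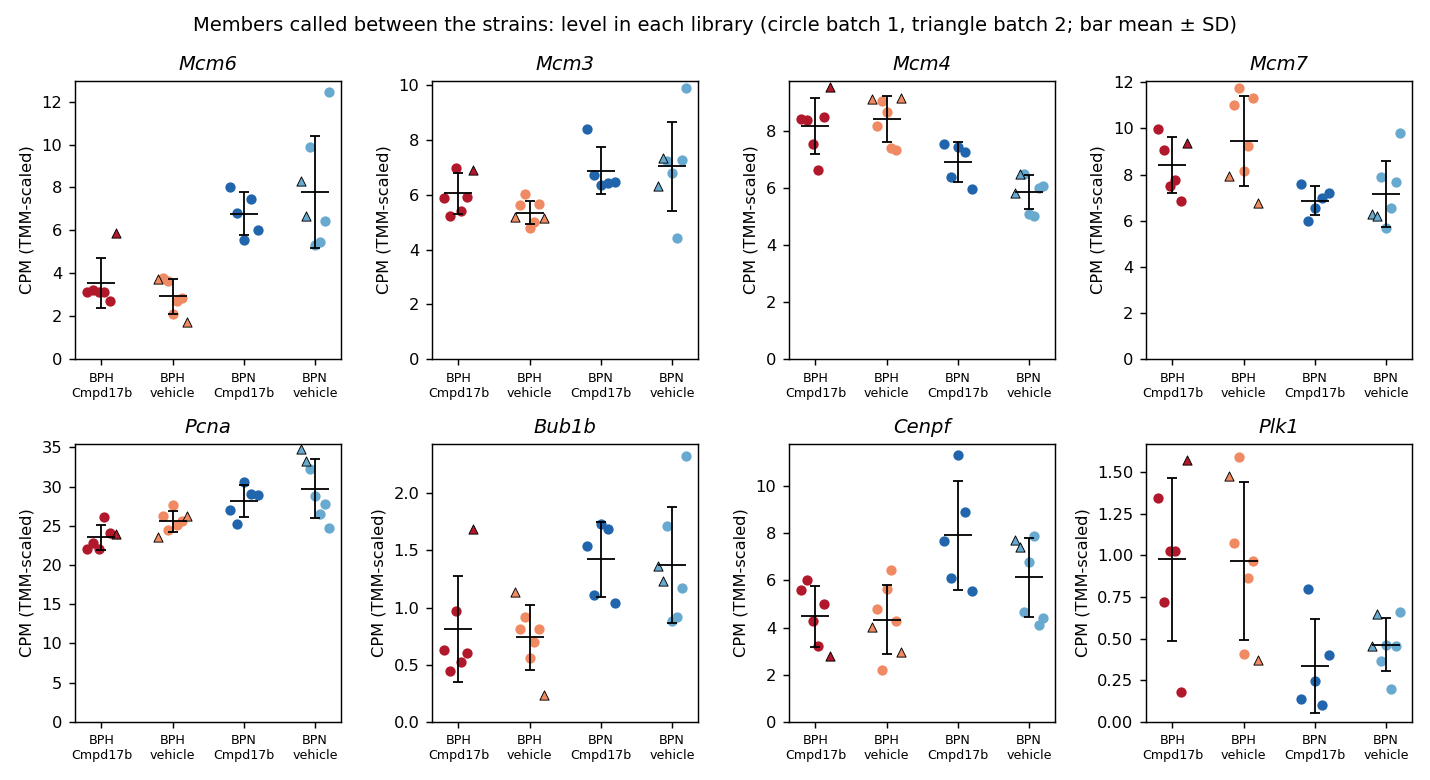
Level of the 8 cell cycle genes called between the strains, as TMM-scaled CPM (vertical axis from 0) in each library of the 4 groups (horizontal axis). Circles are libraries of batch 1, triangles those of batch 2, and bars give the mean and SD. For Mcm6 the BPH_vehicle libraries all lie below the BPN_vehicle libraries, and for Mcm4 they all lie above.

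Promoter windows of the genes called under vehicle are shown because the replication genes and the division genes are known to be governed by different promoter elements. RefSeq windows (GRCm38.p6, from 250 bases before to 50 bases after the gene start) were found for 32 of the 38 genes, and for 5 of the 6 called under vehicle. Each is written 5′ to 3′ on the strand of its gene, and capitals mark matches on either strand to the E2F letters, which were searched as GCGGGAA and, counted in the same way, as GCGCGAA, to the CCAAT box, and to the CHR letters, which were searched as TTTGAA and, counted in the same way, as TTCGAA. The windows are chr1:128359656-128359955, chr5:138171834-138172133, chr1:20820263-20820562 and chr2:132253131-132253430 on the minus strand and chr2:118597961-118598260 on the plus strand.
Mcm6: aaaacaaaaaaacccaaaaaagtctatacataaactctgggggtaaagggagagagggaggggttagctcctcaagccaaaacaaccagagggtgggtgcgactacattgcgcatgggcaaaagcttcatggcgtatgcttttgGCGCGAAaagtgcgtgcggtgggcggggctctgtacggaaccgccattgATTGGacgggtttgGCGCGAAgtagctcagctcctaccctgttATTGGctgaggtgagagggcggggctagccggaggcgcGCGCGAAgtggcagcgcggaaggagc
Mcm7: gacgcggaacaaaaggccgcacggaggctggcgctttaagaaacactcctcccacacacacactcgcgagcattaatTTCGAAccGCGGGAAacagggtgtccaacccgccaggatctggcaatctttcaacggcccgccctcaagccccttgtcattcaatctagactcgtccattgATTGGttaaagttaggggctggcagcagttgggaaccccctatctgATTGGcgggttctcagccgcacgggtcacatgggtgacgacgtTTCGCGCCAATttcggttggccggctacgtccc
Mcm3: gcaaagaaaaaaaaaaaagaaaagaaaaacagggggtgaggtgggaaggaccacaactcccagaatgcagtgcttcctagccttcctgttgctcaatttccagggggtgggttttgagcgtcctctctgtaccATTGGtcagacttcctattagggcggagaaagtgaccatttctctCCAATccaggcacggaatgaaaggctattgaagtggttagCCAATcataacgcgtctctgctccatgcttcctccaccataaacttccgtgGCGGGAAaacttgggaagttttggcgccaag
Pcna: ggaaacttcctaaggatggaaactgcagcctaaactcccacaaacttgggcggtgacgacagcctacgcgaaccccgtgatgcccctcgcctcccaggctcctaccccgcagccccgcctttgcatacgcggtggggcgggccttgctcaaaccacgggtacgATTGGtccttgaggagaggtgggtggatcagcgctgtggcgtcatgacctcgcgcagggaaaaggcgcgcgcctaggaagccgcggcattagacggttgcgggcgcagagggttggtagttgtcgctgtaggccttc
Bub1b: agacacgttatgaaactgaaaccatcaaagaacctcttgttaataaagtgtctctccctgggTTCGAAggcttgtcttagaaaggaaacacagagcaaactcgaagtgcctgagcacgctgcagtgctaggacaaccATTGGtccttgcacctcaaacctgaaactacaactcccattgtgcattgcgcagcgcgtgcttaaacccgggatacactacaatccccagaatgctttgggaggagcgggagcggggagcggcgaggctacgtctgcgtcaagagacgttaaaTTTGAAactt
Mcm6 held 3 E2F matches and 2 CCAAT matches, Mcm3 held 1 and 3, and Mcm7 held 2 and 3 with 1 CHR match, its last E2F and CCAAT matches sharing 1 base. Pcna held a single CCAAT match. Bub1b held 2 CHR matches and 1 CCAAT match and no match to the E2F letters. Among these 5 genes the E2F letters were found in Mcm7, called higher in BPH/2J, and in Mcm6 and Mcm3, called lower, and were not found in Pcna or Bub1b.

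The 32 genes with a window had 35 windows (Mcm7 has 2, of which 1 is shown), and a gene was counted if any of its windows matched. CHR letters occurred in 21 genes (65.6%), against 19.2% of the 32851 windows of all genes, so the shares are per gene and per window. Counted by window, 23 of the 35 held CHR letters, 31 CCAAT and 8 E2F letters. CCAAT occurred in 28 (87.5%), against 37.4% of all windows, and E2F letters in 7 (21.9%), against 6.0%. The 21 genes with CHR letters included Mki67, Top2a, Cdk1, Plk1, Cenpf and Bub1b, and 20 of them also held CCAAT. A match is a description of letters and not a bound site.

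The strain comparison was repeated in separate mice, those on Cmpd17b. There 4 cell cycle genes were called, 10.5% of the 38 against 14.1% of all genes tested. BPH/2J ventricles held less Mcm6, Pcna and Cenpf and more Plk1, so 1 gene was called higher and 3 lower, against 7.48% and 6.65% of all genes. In this comparison 31 of the 38 differences were above 0 (all genes, 51.7%), the median was 0.53 on the log2 scale (all genes, 0.0094) and 20 exceeded 0.5 (52.6%, against 10.1% of all genes). Without BPH_Cmpd17b replicate 6 the median was 0.37 and 29 of 38 were above 0. Fewer genes then exceeded 0.5, and Mki67 (0.69 with that library, 0.44 without) and Top2a (0.66 and 0.44) were among those that fell below it. The groups of none of the 38 were free of overlap, while 12.6% of all genes had groups that did not overlap.

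Mcm6 was 2.71, 3.14 and 5.88 CPM (lowest, median, highest) in BPH_Cmpd17b, against 8.01, 6.83, 5.57, 7.46 and 6.0 CPM in the 5 BPN_Cmpd17b libraries. The overlap came from replicate 6, the highest BPH_Cmpd17b library, and the other 5 reached at most 3.22 CPM. The strains differed by -0.98 on the log2 scale ± 0.23 (SE; edgeR adjusted p = 0.00312), and it was called in all 22 alternatives, between -1.15 and -0.91.

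Pcna was 22, 23.4 and 26.1 CPM in BPH_Cmpd17b, against 27.1, 25.2, 30.6, 29.1 and 28.9 CPM in BPN_Cmpd17b. The strains differed by -0.28 on the log2 scale ± 0.08 (edgeR adjusted p = 0.0166), and its call ended in 1 of 22 alternatives, without BPN_Cmpd17b replicate 3 (-0.25, adjusted p = 0.0589).

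Cenpf, a large protein of the kinetochore and nuclear envelope, was 2.79, 4.64 and 6.03 CPM in BPH_Cmpd17b, against 7.66, 6.10, 11.3, 8.89 and 5.57 CPM in BPN_Cmpd17b. All but 1 of the BPN_Cmpd17b libraries lay above the highest BPH_Cmpd17b library. The log2 difference was -0.81 ± 0.25 (edgeR adjusted p = 0.0283), and without replicate 6 it was -0.72 (adjusted p = 0.0654). Cenpf was called in 12 of 22 alternatives: the call also ended without BPH_Cmpd17b replicates 3 or 4 or BPN_Cmpd17b replicates 3 or 4, with all 26 libraries, with no filter and in batch 1 alone. Under vehicle the same gene differed by -0.51 ± 0.23 (adjusted p = 0.121).

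Plk1, the Polo-like kinase that acts on centrosomes, kinetochores and cytokinesis, was 0.176, 1.03 and 1.57 CPM in BPH_Cmpd17b, against 0.135, 0.797, 0.244, 0.103 and 0.404 CPM in BPN_Cmpd17b. The levels rest on few reads, 4 to 66 per library over the 25. The log2 difference was 1.5 ± 0.50 (edgeR adjusted p = 0.0415), and without replicate 6 it was 1.40 (adjusted p = 0.0742). It was called in 9 of 22 alternatives. Under vehicle Plk1 averaged 0.966 ± 0.474 CPM in BPH_vehicle and 0.463 ± 0.161 CPM in BPN_vehicle. That difference of 1.08 ± 0.42 missed the threshold in the edgeR fit of 25 libraries (adjusted p = 0.0704) and was called by DESeq2. It was also called by edgeR without BPH_vehicle replicates 4 or 7 or BPN_vehicle replicate 7, each left out singly.

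**Figure D3:**
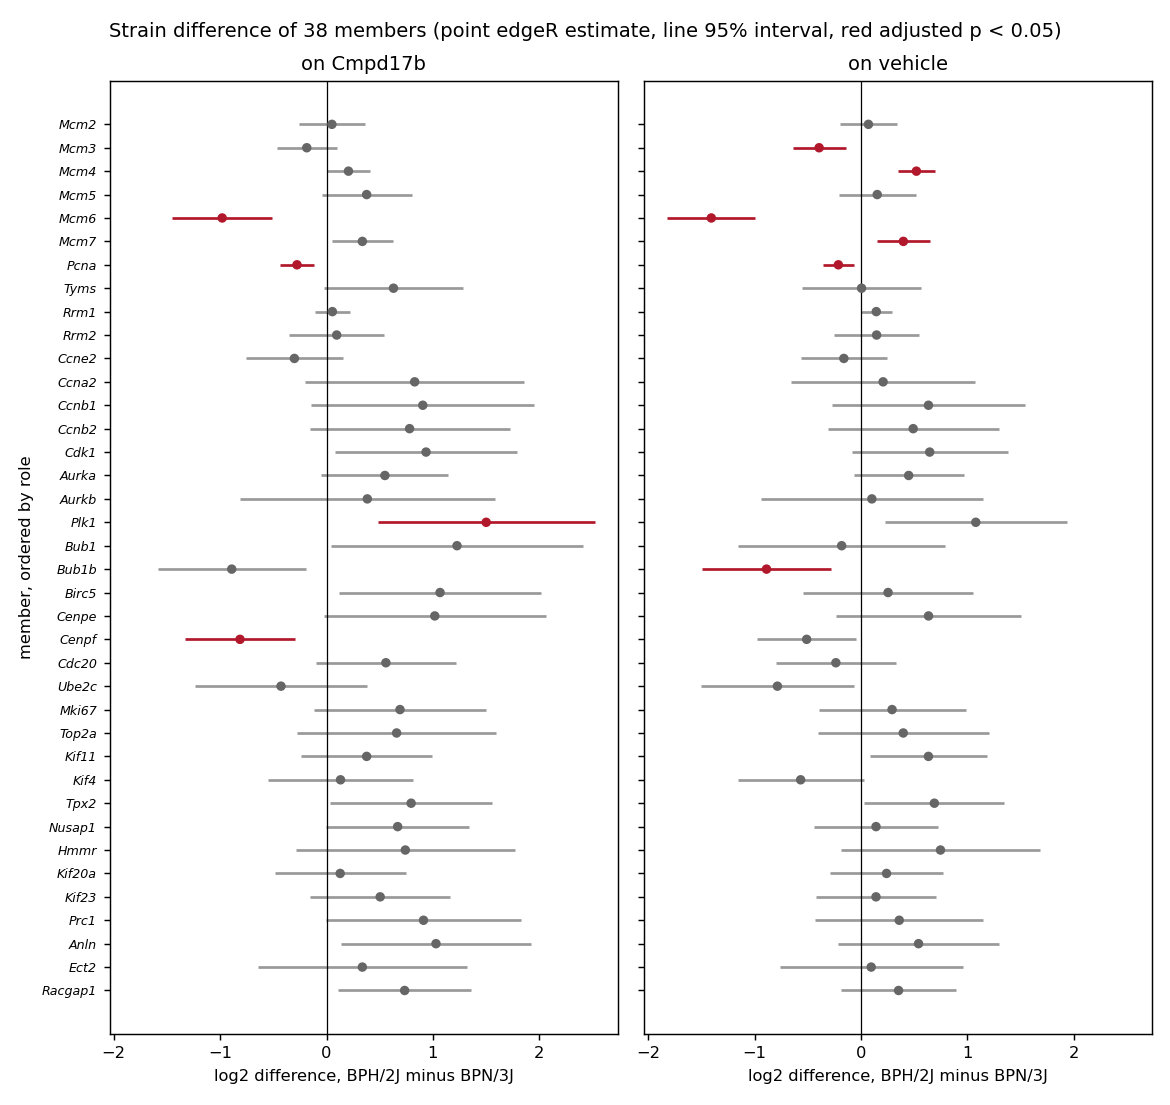
Strain difference of each of the 38 cell cycle genes (vertical axis, ordered by role) as log2 BPH/2J minus BPN/3J (horizontal axis) in mice on Cmpd17b (left) and on vehicle (right). Points are edgeR estimates from 25 libraries, lines 95% intervals, and red marks an adjusted p under 0.05. Mcm6 and Pcna are red and below 0 in both panels, and most division genes lie above 0 with intervals that cross it.

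The 2 strain comparisons share no library, although they share the batch term and the estimate of spread. Of the 38 genes 35 had the same sign in both (92.1%), against 70.5% of all genes tested. All 6 genes called under vehicle had the same sign on Cmpd17b, and 2 of them, Mcm6 and Pcna, were called again, which is 33.3% of the vehicle calls and 50% of the Cmpd17b calls (all genes, 57.4% and 76.7%). Mcm4 differed by 0.21 ± 0.10 on Cmpd17b and by 0.52 ± 0.09 on vehicle, and Mcm3 by -0.19 ± 0.14 and -0.39 ± 0.12. Bub1b differed by -0.89 ± 0.34 on Cmpd17b (edgeR adjusted p = 0.0821) and by -0.89 ± 0.29 on vehicle. Without replicate 6 the Bub1b difference on Cmpd17b was -1.16 and was called (adjusted p = 0.0132).

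Cmpd17b changed no cell cycle gene detectably in BPH/2J mice. None of the 38 was called, and none of the 15543 genes was (0% called by edgeR, DESeq2 and limma voom alike). At an unadjusted p under 0.05, edgeR had 1 of the 38 and 287 of all genes (1.85%). That gene was Rrm2, the small subunit of ribonucleotide reductase, which makes deoxynucleotides. It was 1.51, 2.19 and 3.46 CPM in BPH_Cmpd17b, against 1.08, 1.45 and 2.08 CPM in BPH_vehicle, with overlapping groups and a log2 difference of 0.50 ± 0.20 (edgeR adjusted p = 1). Without BPH_Cmpd17b replicate 6 Rrm2 differed by 0.37 ± 0.21 and did not reach an unadjusted p under 0.05, and Mcm7 did (-0.30 ± 0.13, adjusted p = 1).

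The small differences nevertheless lay mostly on one side of 0: 33 of 38 were above 0 (86.8%, against 50.9% of all genes), with a median of 0.29 (all genes, 0.002). It depended on single libraries. Without BPH_Cmpd17b replicate 6, 21 of 38 were above 0 and the median was 0.05 (all genes, -0.0011). Without BPH_vehicle replicate 7, the library with the lowest sum of division genes, 27 of 38 were above 0 and the median was 0.15. In batch 1 alone, which holds neither library, 15 of 38 were above 0 and the median was -0.03. Removing replicate 6 lowered the difference of 33 genes and raised that of 5. Mki67 changed sign, at 0.23 ± 0.34 with replicate 6 and -0.12 ± 0.34 without it, as did Cdk1 (0.22 and -0.06).

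**Figure D4:**
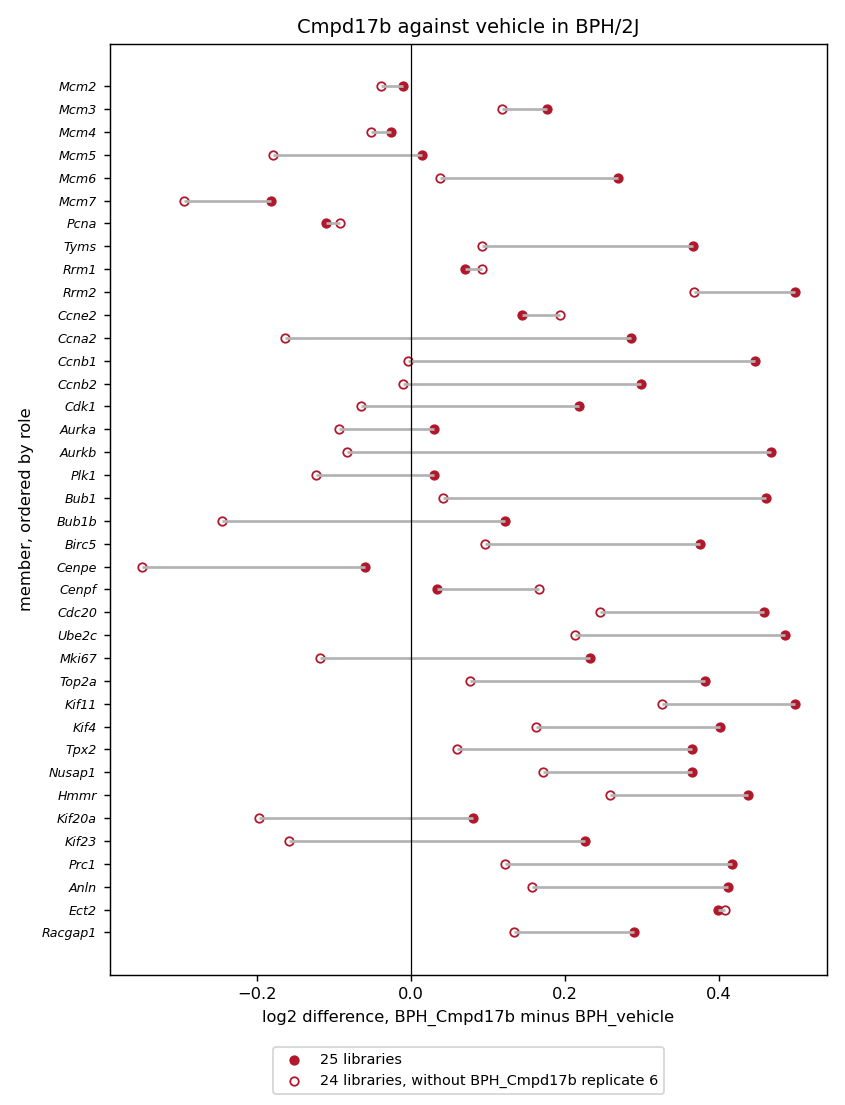
Difference of each of the 38 cell cycle genes (vertical axis, ordered by role) between BPH_Cmpd17b and BPH_vehicle on the log2 scale (horizontal axis). Filled points are the fit of 25 libraries and open points the fit of 24 without BPH_Cmpd17b replicate 6. The filled points lie above 0 for 33 of 38 genes and the open points for 21 of 38.

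Replicate 6 of BPH_Cmpd17b held the highest level of 23 of the 38 cell cycle genes among the 25 libraries (60.5%), while it was highest for 10.8% of all genes tested. Of the 28 division genes it was highest for 19 (67.9%), and of the 10 replication genes for 4. The summed level of the division genes was 72.5 CPM in this library, against 28.0 to 36.4 CPM in the other 5 BPH_Cmpd17b libraries and 16.1 to 43.6 CPM in all others. The replication genes summed to 86.1 CPM, inside the range of 70.7 to 90.9 CPM of the others, and Pcna weighs most in that sum. Each gene was also set against its own median over the 25 libraries, as log2(CPM + 0.1). On that scale the median of the replication genes was 0.218 in this library (division genes, 1.294). That was the highest of the 25 libraries, the next being 0.163 in BPN_vehicle replicate 3. Mki67 was 8.44 CPM against at most 4.69 CPM elsewhere, Top2a 5.97 against at most 3.25 and Cdk1 2.97 against at most 1.86 CPM.

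Markers of other cell types stood high in the same library. The 10 fibroblast markers summed to 3233 CPM, against 776 to 1322 CPM in the other 24, and 8 of the 10 were at their highest there, among them Col1a1 (371 CPM, against 27.4 to 81.5), Col3a1 (907, against 45.7 to 280) and Postn (615, against 10.2 to 84.1). The 12 macrophage and monocyte markers summed to 516 CPM, against 184 to 355 CPM, with 9 of 12 at their highest. Neutrophil markers summed to 12.8 CPM, against 3.62 to 11.6 CPM, with Ngp, Camp and Elane at 0. T and NK, B cell, erythroid and endothelial sums lay inside the range of the others, as did the cardiomyocyte sum, 62950 CPM against 57850 to 73540. All these marker levels are scaled by the library total, unlike the TMM-scaled cell cycle genes. Where the cardiomyocyte and neutrophil sums of this library stand may depend on that scaling, and TMM-scaled sums were not tested. The atrial list reached 3113 CPM through Nppa alone (3090 CPM), with Sln and Bmp10 at 0. The part of these cells in the cell cycle levels was not tested.

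**Figure D5:**
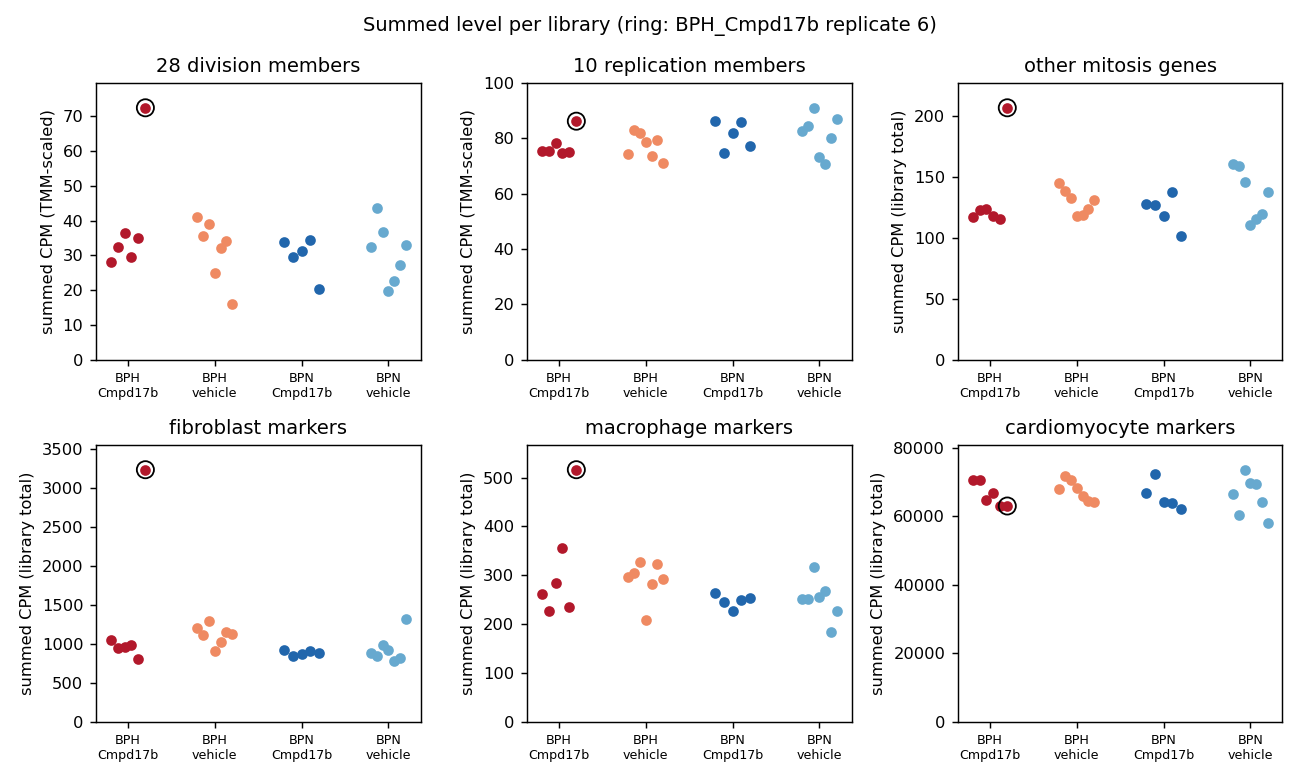
Summed CPM per library (vertical axes from 0) by group (horizontal axes) of the 28 division genes, the 10 replication genes, 48 other mitosis genes, and markers of fibroblasts, macrophages and cardiomyocytes. Each point is a library and the ring marks BPH_Cmpd17b replicate 6. Division and replication genes are TMM-scaled, and the other panels are scaled by the library total only, so the scales differ between panels. The ringed library stands above all others for the division genes (72.5 CPM), other mitosis genes (206 CPM), fibroblast markers (3233 CPM) and macrophage markers (516 CPM), and within the range of the others for replication genes and cardiomyocyte markers.

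In BPN/3J mice Cmpd17b also gave no call among the 38 cell cycle genes, with 0% of all genes called by edgeR and limma voom and 1 gene, not of the 38, called by DESeq2. At an unadjusted p under 0.05 there were 3 of the 38 (7.89%) and 1506 of all genes (9.69%). Differences were above 0 for 17 of 38 and their median was -0.06 (all genes, 47.7% and -0.01). Leaving out 1 library at a time put this median between -0.14 and 0.10. The BPN_Cmpd17b libraries were all in batch 1, and the batch effect applied to them came from the other groups.

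The 3 genes were Mcm4, Rrm2 and Kif11. Mcm4 was 7.52, 6.38, 7.43, 7.25 and 5.95 CPM in BPN_Cmpd17b, against 5.02, 6.01 and 6.47 CPM (lowest, median, highest) in BPN_vehicle. In 3 of the 5 BPN_Cmpd17b libraries it exceeded every BPN_vehicle library. The drug effect was 0.29 on the log2 scale ± 0.10 (edgeR adjusted p = 0.514). Rrm2 differed by 0.55 ± 0.22 (adjusted p = 0.514), close to its 0.50 ± 0.20 in BPH/2J, and Kif11, the motor that pushes spindle poles apart, by 0.76 ± 0.30 (adjusted p = 0.514). Over 23 alternatives the adjusted p of these 3 genes ran from 0.318 to 0.979.

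The drug effect did not differ detectably between the strains. None of the 38 cell cycle genes and none of all genes was called for the difference of the 2 effects (0% by edgeR, DESeq2 and limma voom), and 1 of the 38 (2.63%) had an unadjusted p under 0.05, against 595 of all genes (3.83%). It was Mcm4, whose drug effect was -0.03 ± 0.09 in BPH/2J and 0.29 ± 0.10 in BPN/3J, a difference of -0.31 ± 0.13 (edgeR adjusted p = 0.917). The difference of the effects was above 0 for 26 of the 38 (all genes, 52.1%), with a median of 0.28. Single libraries moved this median: it was 0.06 without BPH_vehicle replicate 7 (20 of 38 above 0), 0.10 without BPH_Cmpd17b replicate 6 (24 of 38), 0.11 without BPN_Cmpd17b replicate 5, 0.16 without BPN_vehicle replicate 7 and 0.17 without BPN_vehicle replicate 3. In batch 1 alone it was -0.07, with 16 of 38 above 0. The 95% intervals of the difference reached 1 or -1 on the log2 scale for 25 of the 38 genes, so the data leave room for a difference of that size in those genes. The drug effects and the strain differences are computed from the same 4 groups and share libraries, so no likeness between them is given.

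The summed levels of the division genes overlapped among all 4 groups. They were 39.0 ± 16.7 CPM in BPH_Cmpd17b (SD, n = 6; 32.3 ± 3.5 without replicate 6), 31.9 ± 8.7 CPM in BPH_vehicle (n = 7), 29.9 ± 5.7 CPM in BPN_Cmpd17b (n = 5) and 30.8 ± 8.2 CPM in BPN_vehicle (n = 7). Low libraries occurred in both strains: the sum was 16.1 CPM in BPH_vehicle replicate 7, 20.3 CPM in BPN_Cmpd17b replicate 5 and 19.8 CPM in BPN_vehicle replicate 4. The replication genes varied less, with sums of 77.5 ± 4.5, 77.4 ± 4.4, 81.1 ± 5.1 and 81.2 ± 7.3 CPM in the same order of groups.

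Regulators upstream of the cell cycle genes were examined as fixed lists. Their calls can be read against all genes tested, of which 9.16% were called higher and 9.73% lower under vehicle, and 7.48% and 6.65% on Cmpd17b. In vehicle-treated mice 2 of 12 G1 cyclins, kinases and activators were called higher in BPH/2J and none lower. Ccnd2, the cyclin D2 that couples growth signals to the retinoblastoma protein, averaged 109.6 ± 20.6 CPM in BPH_vehicle and 63.4 ± 10.04 CPM in BPN_vehicle, without overlap, a log2 difference of 0.79 ± 0.11 (edgeR adjusted p = 1.64e-06). Cdc25a, a phosphatase that activates cyclin-dependent kinases, differed by 0.55 ± 0.11 (adjusted p = 0.000381). On Cmpd17b the same 2 genes were called, at 0.60 ± 0.12 and 0.49 ± 0.12, and so was Ccne1 (1.34 ± 0.34, adjusted p = 0.00593), the cyclin E of S phase entry.

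Among 18 inhibitors and brakes, 3 were called lower in BPH_vehicle: Rbl2 and Rb1, of the retinoblastoma family, and the kinase inhibitor Cdkn1c. Rbl2 averaged 26.1 ± 1.8 CPM in BPH_vehicle and 34.5 ± 8.7 CPM in BPN_vehicle (-0.40 ± 0.12, edgeR adjusted p = 0.0184). It was lower again in BPH_Cmpd17b than in BPN_Cmpd17b, without overlap (27.2 ± 2.4 and 39.0 ± 2.5 CPM, -0.53 ± 0.14, adjusted p = 0.00745). In that comparison 1 of the 18 was called lower (Rbl2) and 1 higher, Wee1, a kinase that holds Cdk1 inactive (0.49 ± 0.16, adjusted p = 0.0354). Of 17 E2F, FOXM1 and DREAM regulators 1 was called higher (Rbbp4) and 1 lower (Lin37) under vehicle, and none on Cmpd17b.

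Of 37 other replication genes tested 1 was called higher and 1 lower under vehicle. Pola1, the catalytic subunit of the polymerase that primes DNA synthesis, averaged 6.46 ± 0.88 CPM in BPH_vehicle and 3.71 ± 0.74 CPM in BPN_vehicle (0.80 ± 0.12, edgeR adjusted p = 9.1e-06). Mcm8, an MCM protein of homologous recombination that is not part of the replicative ring, averaged 1.54 ± 0.26 and 3.19 ± 0.59 CPM (-1.05 ± 0.15, adjusted p = 4.3e-06). Both were called in the same direction on Cmpd17b, at 0.61 ± 0.14 and -0.77 ± 0.17. In that comparison 2 of the 37 were called higher and 2 lower. The further genes were Chaf1a (0.86 ± 0.21, edgeR adjusted p = 0.00476) and Dut (-0.44 ± 0.13, adjusted p = 0.0208). Chaf1a and Dut remained called without BPH_Cmpd17b replicate 6 (adjusted p = 0.00824 and 0.0484).

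Of 46 other mitosis genes tested 2 were called higher and 4 lower under vehicle. Cit, the citron kinase of the cytokinetic midbody, averaged 1.08 ± 0.28 CPM in BPH_vehicle and 3.94 ± 1.00 CPM in BPN_vehicle, a log2 difference of -1.86 ± 0.20 (edgeR adjusted p = 3.3e-08) that exceeded that of any of the 38 genes. On Cmpd17b it differed by -1.40 ± 0.22 (adjusted p = 2.97e-05). Spc24, of the kinetochore, and Pttg1, the securin that inhibits separase until anaphase, were also called lower in both comparisons. Spc24 had log2 differences of -0.70 ± 0.21 on Cmpd17b and -0.91 ± 0.19 under vehicle. On Cmpd17b 1 of the 46 was called higher (Ncaph, of condensin) and 3 lower, and without BPH_Cmpd17b replicate 6 only Cit was called (-1.52, adjusted p = 8.51e-06), with Spc24 at -0.64 (adjusted p = 0.0535), Pttg1 at -0.51 (adjusted p = 0.0797) and Ncaph at 0.85 (adjusted p = 0.0543). No gene of the 5 lists was called for Cmpd17b in either strain (0% of all genes).

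The genes beside the called cell cycle genes on the chromosome were also read, taking 5 tested genes on either side in the GRCm38 gene order. Under vehicle none of the 10 neighbours of Mcm6, Mcm4 or Mcm7 was called between the strains, while 3 of 10 were for Mcm3, 2 of 10 for Bub1b and 4 of 10 for Pcna (all genes, 18.9%). On Cmpd17b 1 of 10 was called for Mcm6 and for Cenpf, 2 of 10 for Plk1 and 3 of 10 for Pcna (all genes, 14.1%).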

How the data were processed

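Left ventricles of 26 mice gave poly(A) RNA libraries, and the titles name each library as a separate mouse. The authors deposited 1 table of estimated counts per gene: 93.3% of its values are whole and 2.21% lie over 0.01 from a whole number, so they were rounded. The submitters' processing notes name Trim Galore 0.6.7, STAR 2.7.9a and the build GRCm39; which program counted the reads, with what strand setting and annotation, was not given in the sources used here. Of 73 pairs of libraries within a group 0 were identical.

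The counts of 25 libraries were fitted in R 4.3.3 with edgeR 4.0.16 (filterByExpr on the 4 groups, TMM, robust quasi-likelihood fit, batch term), tested on simulated data first. The contrasts were the strain difference on each treatment, the Cmpd17b effect in each strain, and the difference of the 2 effects. Alternatives used DESeq2 1.42.0, limma 3.58.1 (voom with quality weights), other filters, scalings and library sets. The text names the genes called in any contrast, the 5 with the smallest p in each contrast that called fewer than 10, and Mki67, Top2a, Cdk1, Ccnb1, Pcna and Mcm2. Exon lengths and overlaps came from GENCODE for GRCm38, for want of a GRCm39 annotation here, and promoters from RefSeq. The genes and lists were chosen with earlier results of these data known. Intervals are 95%.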

Additional observations from a re-analysis of the deposited data

Results flagged for a closer look

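Single libraries stood far from the rest of their group in 11 of 80 tests by Dixon's ratio (20 genes in 4 groups). BPH_Cmpd17b replicate 6 accounted for 8 of the 11. Chance gives about 1 in 20 for independent, normally distributed values. These tests share libraries and part of the genes were named by their p in the same data, so no excess over chance is read from the count. In this library Mki67 was 8.44 CPM (next highest of the group 3.66), Top2a 5.97 (2.36), Cdk1 2.97 (1.38), Ccnb1 2.07 (0.743), Kif11 2.36 (1.27), Bub1 0.64 (0.317), Tyms 4.45 (2.23) and Mcm6 5.88 CPM (3.22).

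In BPN_Cmpd17b replicate 1, Mcm3 was 8.41 CPM (next highest 6.73) and Bub1 0.297 CPM (0.128). In BPN_vehicle replicate 7, Cdc20, the activator of the anaphase-promoting complex, was 2.23 CPM (1.37).

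The library with a kidney profile, labelled BPH_Cmpd17b replicate 7 and used in no comparison, held more of 4 named genes than any of the other 25 libraries. By library total, Mcm2 was at 11.6 CPM (highest of the others 7.73), Mcm7 at 18.5 (12.2), Tyms at 7.9 (5.41) and Rrm2 at 5.75 CPM (4.21). These values are not on the TMM scale used above, where the highest Tyms level of the 25 libraries was 4.45 CPM.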

How the results depend on the processing

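Of the 38 genes, 6 were called between the strains under vehicle and 4 on Cmpd17b (all genes, 2936 and 2197). With all 26 libraries the counts were 2 and 2 (all genes, 1492 and 1195). In batch 2 alone 2 were called under vehicle (all genes, 1168), and with no filter 2 on Cmpd17b (all genes, 1989). DESeq2 gave 7 and 5 (all genes, 3281 and 2484). Without BPN_vehicle replicate 7 and BPH_Cmpd17b replicate 6 there were 8 under vehicle (all genes, 3976). The settings ranged from 2 to 8 under vehicle and 2 to 5 on Cmpd17b (all genes, 1168 to 4106 and 1195 to 3392). Leaving out 1 library at a time gave 4 to 6 under vehicle and 1 to 4 on Cmpd17b (all genes, 2598 to 3751 and 1834 to 2066). On Cmpd17b the count was 1 without BPN_Cmpd17b replicate 3 and 2 without BPN_Cmpd17b replicate 4 or BPH_Cmpd17b replicates 3 or 4. Both drug effects and their difference gave 0 throughout. The causes were not tested.

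Signs changed for some small differences, in log2. With all 26 libraries Mcm2 was 0.14 for Cmpd17b in BPH/2J and 0.084 for the difference of the drug effects. Without replicate 6, Cmpd17b in BPH/2J gave Mki67 -0.12, Cdk1 -0.0645 and Ccnb1 -0.0032, and Cmpd17b in BPN/3J gave Ccnb1 -0.0255. With voom Mcm2 was -0.017 between strains on vehicle, -0.076 for Cmpd17b in BPN/3J and 0.030 for the difference. With no batch term Mcm2 was -0.0176 between strains on Cmpd17b and 0.0276 for Cmpd17b in BPH/2J, and Cmpd17b in BPN/3J gave Top2a -0.11 and Ccnb1 -0.10. In batch 1 alone, Cmpd17b in BPH/2J gave Mki67 -0.20, Top2a -0.014, Cdk1 -0.19 and Ccnb1 -0.17, in BPN/3J Pcna 0.0118, and the difference Top2a -0.12, Cdk1 -0.16 and Ccnb1 -0.37. In batch 2 alone the vehicle strain difference was -0.13 for Mki67, -0.094 for Top2a, -0.12 for Cdk1 and -0.45 for Ccnb1. With only the groups compared, Pcna was 0.0037 for Cmpd17b in BPN/3J. Without BPN_vehicle replicate 7 as well as replicate 6, an alternative chosen after seeing the data, Mcm2 was -0.0169 between strains on vehicle, -0.10 for Cmpd17b in BPN/3J and 0.047 for the difference, Mki67 -0.099 and Cdk1 -0.083 for Cmpd17b in BPH/2J, and Ccnb1 -0.036 for the difference.

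Leaving out 1 library at a time, Mcm2 ranged from -0.032 to 0.12 between strains on Cmpd17b, -0.0144 to 0.14 on vehicle, -0.088 to 0.0365 for Cmpd17b in BPH/2J, -0.087 to 0.093 in BPN/3J and -0.10 to 0.070 for the difference. For Cmpd17b in BPH/2J, Mki67 ranged from -0.12 to 0.35, Cdk1 from -0.0645 to 0.36 and Ccnb1 from -0.0032 to 0.60. In BPN/3J, Mki67 ranged from -0.41 to 0.0118, Top2a from -0.028 to 0.43, Cdk1 from -0.23 to 0.30 and Ccnb1 from -0.13 to 0.44. For the difference, Top2a ranged from -0.060 to 0.46, Cdk1 from -0.10 to 0.45 and Ccnb1 from -0.045 to 0.57. Batch 2 alone was run for the vehicle strain difference only. No paired analysis was possible because the replicate numbers were given in accession order and pair no mice.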
